A study of Homo sapiens with 4 samples.

Results

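The voltage-gated and related cation channel genes of neurons were examined in SK-N-BE(2)C cells, a human neuroblastoma line with amplified MYCN. Members were taken by name alone, as the protein-coding genes of GENCODE release 44 on chromosomes 1 to 22 whose symbols begin with KCN, CACNA, CACNB or CACNG, or with SCN followed by a number and A or B. This gave 133 of 19111 genes, with 94 potassium, 25 calcium and 14 sodium channel genes. The sgSNHG1 cells received Cas9 with guide RNAs and a pSurrogate reporter, were selected in puromycin and were sorted as single cells into clones. The paper calls the sgCtrl cells a clone and does not state these steps for them. The sgCtrl cells carried a non-targeting control gRNA and were labelled wildtype (2 samples). The sgSNHG1 cells carried gRNA against the long non-coding RNA gene SNHG1 and were labelled SNHG1 knockout (2 samples). The paper states that SNHG1 expression was repressed in the sgSNHG1 cells but that the knockout was not complete. Chromatin was immunoprecipitated for H3K27ac, and the authors pooled both samples of a group into 1 list of peaks, so no value per sample was available and no difference below was tested. The clone used for each list was not named in the sources used here, and a difference between clones and an effect of the guide RNA cannot be told apart.

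Acetylation of histone H3 at lysine 27 marks promoters and enhancers in use. Voltage-gated sodium channels start the action potential, potassium channels end it and hold the resting potential, and calcium channels let in the calcium that drives transmitter release and gene expression. The channels are built from pore-forming alpha subunits, and many also have auxiliary subunits that set their gating and their transport to the membrane. Neuroblastoma arises from sympathetic precursors, in which many of these genes are used as the cells become neurons.

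In sgCtrl 63699 peaks had been called and in sgSNHG1 50119, so the second list was 0.787 times the length of the first, and the read depth behind each list is unknown. The fold enrichment of a peak is the ratio of its summit to the local background of the peak caller, and its median was 3.75 in sgCtrl and 3.89 in sgSNHG1. At SNHG1 itself (chr11:62851978-62855953), the sgCtrl list held 1 peak with a fold enrichment of 3.44 and the sgSNHG1 list held 0. Of 11 markers of adrenergic neuroblastoma, 11 had a promoter peak in both lists. Promoter peaks of markers of other cells were at 1 of 4 blood, 1 of 3 epithelial, 0 of 1 liver, 1 of 2 endothelial and 1 of 2 muscle genes in each list. All intervals below are 95% intervals from the numbers of genes or peaks, and they cover counting error only.

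The promoters of 6 channel genes are shown, with peaks in both lists at 3 and in 1 list at 3. They were taken from RefSeq (GRCh38.p14), which held a 300-base promoter, from 250 bases before to 50 after the start, for 95 of the 133 members. Only genes whose RefSeq window lay under a peak could be picked, as 23 of the 95 did in sgCtrl and 25 in sgSNHG1. The 6 are thus examples and do not stand for their groups. Several promoter peaks found in sgCtrl only were higher than that of KCNA7 and are given below. Each window overlaps the promoter peak, at SCN8A only by the edge of the peak. Letters run 5′ to 3′ on the strand of the gene, and capitals mark CpG dinucleotides. CACNA2D1 (chr7:82443907-82444206, minus strand), SCN8A (chr12:51590983-51591282, plus strand) and KCNK3 (chr2:26692472-26692771, plus strand) had a promoter peak in both lists. They hold 29, 52 and 39 CpG.
CACNA2D1: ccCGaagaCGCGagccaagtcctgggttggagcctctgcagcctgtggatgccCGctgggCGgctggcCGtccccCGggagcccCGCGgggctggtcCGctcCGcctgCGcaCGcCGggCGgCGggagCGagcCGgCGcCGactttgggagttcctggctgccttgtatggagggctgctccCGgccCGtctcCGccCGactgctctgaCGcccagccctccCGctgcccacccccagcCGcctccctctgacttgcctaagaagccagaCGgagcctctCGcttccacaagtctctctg
SCN8A: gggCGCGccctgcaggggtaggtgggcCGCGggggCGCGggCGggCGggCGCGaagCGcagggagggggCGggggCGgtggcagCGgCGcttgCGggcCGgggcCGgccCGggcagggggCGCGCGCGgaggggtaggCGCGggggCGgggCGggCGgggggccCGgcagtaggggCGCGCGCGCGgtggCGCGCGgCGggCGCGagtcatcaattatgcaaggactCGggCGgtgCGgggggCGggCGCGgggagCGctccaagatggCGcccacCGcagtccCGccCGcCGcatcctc
KCNK3: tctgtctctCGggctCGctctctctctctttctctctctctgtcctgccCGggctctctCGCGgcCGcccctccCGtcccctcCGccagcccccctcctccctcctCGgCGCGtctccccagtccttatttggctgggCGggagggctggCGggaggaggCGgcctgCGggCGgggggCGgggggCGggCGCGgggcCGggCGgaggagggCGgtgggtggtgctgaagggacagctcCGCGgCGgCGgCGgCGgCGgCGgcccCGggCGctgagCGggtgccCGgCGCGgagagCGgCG

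KCNA7 (chr19:49072650-49072949, minus strand) had a promoter peak in sgCtrl only, and KCNJ8 (chr12:21774657-21774956, minus strand) and CACNB4 (chr2:152099118-152099417, minus strand) in sgSNHG1 only. They hold 45, 16 and 23 CpG.
KCNA7: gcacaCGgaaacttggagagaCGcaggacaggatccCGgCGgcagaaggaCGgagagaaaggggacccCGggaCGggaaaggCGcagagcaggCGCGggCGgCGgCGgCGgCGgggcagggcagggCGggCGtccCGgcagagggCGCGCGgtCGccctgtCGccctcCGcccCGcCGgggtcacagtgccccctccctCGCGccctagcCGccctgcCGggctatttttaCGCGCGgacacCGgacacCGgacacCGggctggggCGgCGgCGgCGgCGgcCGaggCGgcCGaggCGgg
KCNJ8: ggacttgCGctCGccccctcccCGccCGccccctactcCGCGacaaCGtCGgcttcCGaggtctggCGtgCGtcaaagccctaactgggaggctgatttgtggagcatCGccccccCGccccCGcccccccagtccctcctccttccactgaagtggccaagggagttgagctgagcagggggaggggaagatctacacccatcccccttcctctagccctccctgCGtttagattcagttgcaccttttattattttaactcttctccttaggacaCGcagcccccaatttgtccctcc
CACNB4: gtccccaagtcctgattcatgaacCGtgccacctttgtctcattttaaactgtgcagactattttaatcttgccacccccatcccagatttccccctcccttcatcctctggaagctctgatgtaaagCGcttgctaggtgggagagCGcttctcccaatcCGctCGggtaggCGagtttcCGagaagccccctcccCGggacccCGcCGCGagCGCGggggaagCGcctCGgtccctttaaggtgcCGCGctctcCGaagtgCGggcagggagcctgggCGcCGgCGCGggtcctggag

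Most channel genes carried H3K27ac in both groups, and a minority carried none. A peak lay in the window of a gene, its body plus 10 kb on either side, at 103 of the 133 members in sgCtrl (77.4%, 69.6 to 83.7) and at 99 in sgSNHG1 (74.4%, 66.4 to 81.1). Over all protein-coding genes the shares were 81.2% and 79.1%. Both lists had a peak at 95 members, and 26 members had none in either list. Peaks were in sgCtrl only at 8 members (4.25% of all genes) and in sgSNHG1 only at 4 (2.14% of all genes). With the sgCtrl list cut to equal length by −log10 p, 94 members had a peak in sgCtrl and 99 in sgSNHG1. Over all genes the shares were then 78.1% and 79.1%, so the order of the lists turned with their length.

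A promoter peak lay within 3 kb of an annotated start site of a protein-coding transcript. It was found at 85 members in sgCtrl (63.9%, 55.5 to 71.6) and at 81 in sgSNHG1 (60.9%, 52.4 to 68.8), beside 69.4% and 67.6% of all genes. Promoter peaks were in both lists at 76 members and in neither at 43. They were in sgCtrl only at 9 members (4.93% of all genes) and in sgSNHG1 only at 5 (3.18% of all genes). With the sgCtrl list cut to equal length, 76 members had a promoter peak in sgCtrl and 81 in sgSNHG1 (65.4% and 67.6% of all genes). The promoter peaks were then in sgCtrl only at 7 members and in sgSNHG1 only at 12 (3.06% and 5.31% of all genes). The order of the lists thus turned with their length.

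The channel genes are long, with a median length of 68003 bp against 27877 bp over all genes. Among genes under 20 kb, 57.9% of 38 members had a peak in sgCtrl and 74.2% of all genes did. Among genes of 20 to 100 kb the shares were 94.7% of 38 members and 85.5% of all genes. Among genes of 100 to 300 kb they were 68.8% of 32 members and 87.5%, and from 300 kb they were 92.0% of 25 members and 87.1%. The share with a peak was thus below that of all genes among the shortest members and those of 100 to 300 kb, and above it in the other classes.

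**Figure D1:**
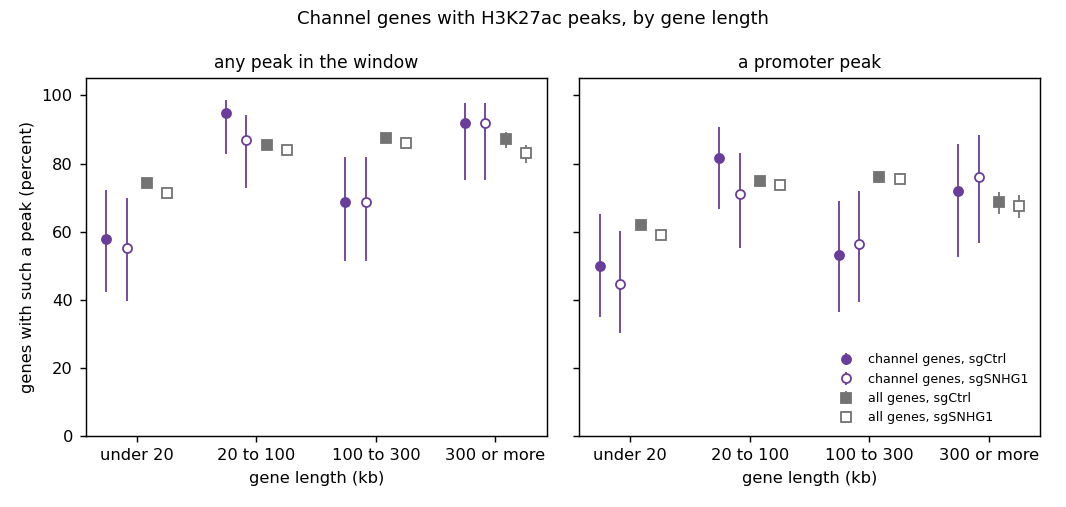
Percent of genes with any H3K27ac peak in the window (left) or with a promoter peak (right), by gene length in kb, for the channel genes (circles) and all protein-coding genes (squares) in sgCtrl (filled) and sgSNHG1 (open). Bars are 95% Wilson intervals over genes, and the intervals of the 2 lists overlap in every class of channel genes.

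SCN1A, SCN2A, SCN3A and SCN9A, neighbouring genes of chromosome 2 for neuronal sodium channel alpha subunits, had 0 peaks in both lists, as had SCN10A of chromosome 3. SCN7A of the same cluster had 1 sgCtrl peak and 0 sgSNHG1 peaks. The shaker-type genes KCNA1, KCNA4, KCNA5 and KCNA10 had 0 peaks, while KCNA2, KCNA3 and KCNA6 had 1 promoter peak in each list. Also without a peak were KCNC2, KCND2, the inward rectifiers KCNJ2, KCNJ3, KCNJ13, KCNJ16 and KCNJ18, the two-pore genes KCNK6, KCNK16 and KCNK17, the calcium-activated KCNN4, the sperm channel gene KCNU1, the auxiliary KCNE2, KCNMB1, KCNMB4 and KCNRG, and the calcium channel gene CACNG3. KCNJ18 and KCNJ12 are near-identical copies, so reads may not have been placed between them, and their counts are uncertain. Among the remaining sodium channel genes, the promoter mark in sgCtrl was highest at SCN8A.

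SCN8A, which encodes a channel of the axon initial segment (chr12:51590266-51812864) had a promoter peak of 11.0-fold enrichment in sgCtrl and of 9.02 in sgSNHG1. SCN3B, which encodes an auxiliary beta subunit, had 1 peak per list, at its promoter, of 6.48 and 6.78. Both genes carried the promoter mark in both lists, and SCN8A was lower in sgSNHG1, by -0.28 on the log2 scale. The promoter peak of SCN11A, at 7.47 and 10.6, had its nearest start site in the neighbouring gene WDR48. In all, the sodium channel windows held 29 peaks in sgCtrl and 16 in sgSNHG1, a ratio of 0.552 (0.300 to 1.02).

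Fewer peaks were called over the channel genes in sgSNHG1 than in sgCtrl. Their windows held 676 distinct peaks in sgCtrl and 496 in sgSNHG1, a ratio of 0.734 (0.653 to 0.824), beside 49147 and 38757 peaks and 0.789 over the windows of all genes. The bases under peaks were 323691 and 226263, a ratio of 0.699 against 0.776 over all genes. Peaks were fewer in sgSNHG1 at 58 members (38.4% of all genes), more at 18 (15.1% of all genes) and equal at 31. Those 58 are 43.6% of the members and the 18 are 13.5%, both near the shares of all genes. When the sgCtrl list was reduced to the length of the other by −log10 p, the ratio over the channel genes was 0.965, beside 0.986 over all genes.

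**Figure D2:**
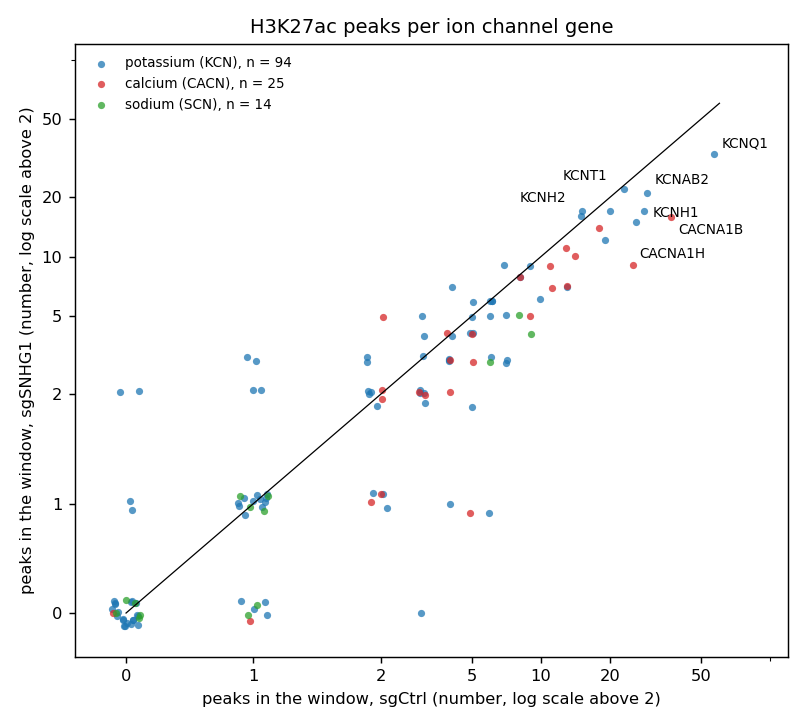
Number of H3K27ac peaks in the window of each of the 133 channel genes in sgCtrl (x axis) and sgSNHG1 (y axis), on axes that are linear to 2 and logarithmic above, with points moved by up to 0.12 so that they can be told apart. The diagonal marks equal numbers, and KCNQ1, CACNA1B and CACNA1H lie below it while KCNH2 lies above it.

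Peaks were crowded in a few genes. The 6 members with the most peaks held 29.6% of the sgCtrl total (200 of 676) and 25% of the sgSNHG1 total (124 of 496). KCNQ1 (chr11:2444654-2849105), which encodes a cardiac and epithelial potassium channel, had 57 peaks in sgCtrl and 33 in sgSNHG1. CACNA1B (chr9:137877782-138124624), the gene of the N-type calcium channel of nerve terminals, had 37 and 16. KCNAB2 (chr1:5990927-6101193), which encodes an auxiliary beta subunit, had 29 and 21. These 3 genes all had fewer peaks in sgSNHG1. KCNH1 (chr1:210676823-211134165), of the ether-a-go-go family, had 28 and 17. KCNT1 (chr9:135702185-135795508), the gene of a sodium-activated potassium channel, had 23 and 22. Of these 5, only KCNT1 had nearly equal numbers in both lists.

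Position and base composition, which the naming rule did not use, were compared at these 5 genes. KCNQ1, CACNA1B, KCNAB2 and KCNT1 lie 2.44, 0.270, 5.99 and 2.60 Mb from the nearer end of their chromosome, and KCNH1 lies 37.8 Mb from it. The median GC content of their sgCtrl peaks, over 500 bp around the summit, was 64.0%, 62.6%, 63.6% and 66.2%, and 52.7% at KCNH1, beside 63.4% over the sgCtrl peaks of all channel genes. KCNH1 thus stood apart from the other 4 in both. Per 100 kb of window, CACNA1H had 28.2 peaks in sgCtrl and KCNH2 had 28.1. Over all member windows the density was 2.94 peaks per 100 kb in sgCtrl and 2.16 in sgSNHG1.

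**Figure D3:**
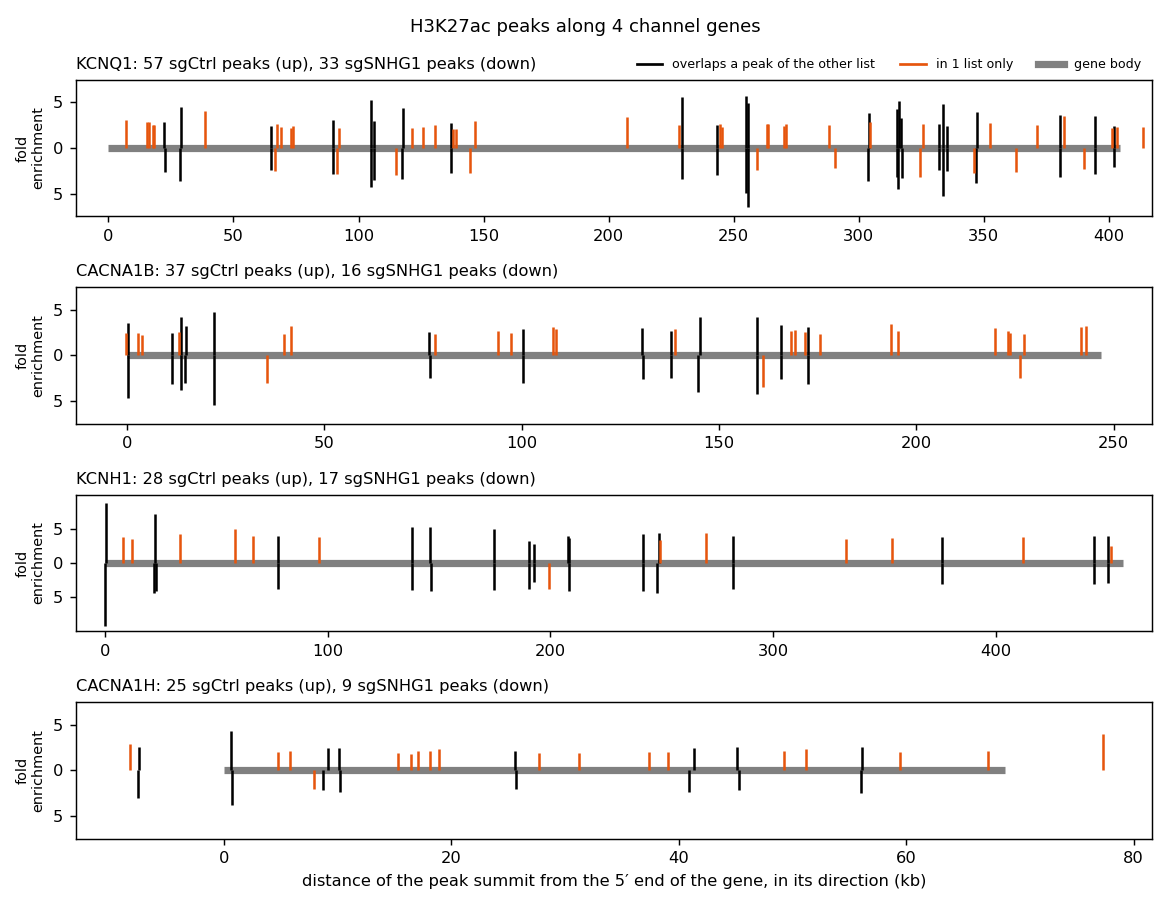
Summits of the H3K27ac peaks along KCNQ1, CACNA1B, KCNH1 and CACNA1H, with the distance from the 5′ end of the gene in kb on the x axis and the fold enrichment upward for sgCtrl and downward for sgSNHG1. Black lines overlap a peak of the other list, orange lines do not, and most of the unmatched lines are sgCtrl peaks of low enrichment in the gene body.

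Where peaks were shared, they were of like height in both lists. Of the 676 sgCtrl peaks, 373 (55.2%, 51.4 to 58.9) overlapped a sgSNHG1 peak by at least 1 base, so 303 did not (37.1% of the peaks in the windows of all genes did not). Of the 496 sgSNHG1 peaks, 377 (76.0%, 72.1 to 79.6) overlapped a sgCtrl peak, and 119 did not (19.1% over all genes). The 373 shared sgCtrl peaks had a median log2 ratio of fold enrichment, sgSNHG1 to sgCtrl, of -0.01 relative to all shared peaks, with quartiles of -0.16 and 0.15. The unshared peaks were narrower than the shared ones, and in sgCtrl also lower. In sgCtrl their median fold enrichment was 2.88 and their median width 301 bp, against 3.60 and 496 bp for the shared ones. Over all genes these values were 3.16 and 294 bp, against 4.17 and 529 bp. In sgSNHG1 the unshared peaks of the channel genes had 3.27 and 259 bp, against 3.44 and 418 bp, so their height differed little.

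The unshared peaks of the channel genes also had a lower GC content than the shared ones, as over all genes. The median was 62.2% in sgCtrl and 58.6% in sgSNHG1 for unshared peaks, and 64.8% and 65.0% for shared ones. Over all genes it was 59.8% and 56.6% for unshared peaks, and 64.4% and 64.4% for shared ones. Among peaks of 60 to 70% GC the channel genes had 371 peaks in sgCtrl and 233 in sgSNHG1, a ratio of 0.628, beside 0.752 over all genes. From 50 to 60% GC they had 167 and 127, a ratio of 0.760 beside 0.709. Below 50% GC they had 27 and 35, a ratio of 1.30 beside 1.04. At 70% or more they had 111 and 101, a ratio of 0.910 beside 0.95. The part of GC content in the difference between the lists was not tested.

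By position, the difference lay mostly outside the promoters. Peaks within 3 kb of a start site of the member itself numbered 164 in sgCtrl and 135 in sgSNHG1, a ratio of 0.823 (0.655 to 1.03), beside 0.923 for the promoter peaks of all genes. Peaks near the start site of another gene numbered 38 in each list. Peaks elsewhere in the gene body numbered 434 and 293, a ratio of 0.675 (0.582 to 0.783), beside 0.684 over all genes. Peaks in the flanks numbered 40 and 30. The ratio in the bodies of the channel genes was thus close to that of all gene bodies.

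The calcium channel genes had a lower ratio than the potassium channel genes, and a large part of their gap lay at CACNA1B and CACNA1H. The calcium channel windows held 201 peaks in sgCtrl and 127 in sgSNHG1, a ratio of 0.632 (0.506 to 0.789). Peaks were fewer in sgSNHG1 at 19 of 25 genes and more at 1. Of the peaks, 37 in sgCtrl and 16 in sgSNHG1 lay at CACNA1B, and 25 and 9 at CACNA1H. The ratio without CACNA1B and CACNA1H was not computed. The potassium channel windows held 446 and 353 peaks, a ratio of 0.791 (0.688 to 0.910), with fewer at 34 of 94 genes and more at 17. With lists of equal length the calcium channel ratio was 0.852, with fewer peaks at 9 genes and more at 8, and the potassium channel ratio was 1.03. The calcium channel ratio was thus below the potassium channel ratio under both lists, and closer to 1 with equal lengths. Without the calcium channel genes the ratio over the other members was 0.777, near that of all genes.

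All 9 genes for the pore-forming alpha1 subunits of calcium channels had fewer peaks in sgSNHG1, with 113 peaks in sgCtrl and 57 in sgSNHG1, a ratio of 0.504 (0.367 to 0.694). Over all genes peaks were fewer at 38.4%, at 51.8% of genes of 300 kb or more and at 88.2% of genes with 10 or more sgCtrl peaks, as 4 of the 9 have. CACNA1H (chr16:1153106-1221771), the gene of a T-type channel that opens at low voltage, had 25 and 9, of which 8 in each list overlapped. CACNA1B had 37 and 16, with 13 overlapping in each. These were the widest gaps of the group, and in both genes most sgCtrl peaks had no counterpart. CACNA1I, of another T-type channel, had 13 and 7, and CACNA1G had 13 and 11. CACNA1C, of the L-type channel of heart and neurons, had 9 and 5, CACNA1S of skeletal muscle had 5 and 1, and CACNA1D had 2 and 1. CACNA1A, of the P/Q-type channel of synapses, had 5 and 4, and CACNA1E, of the R-type channel, had 4 and 3. With lists of equal length the group had 81 and 57 peaks, a ratio of 0.704, with fewer at 5 genes and more at 3, and at a −log10 p of at least 10 it had 89 and 38, with fewer at 7 and more at 1.

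The auxiliary calcium channel genes were closer to even. The alpha2delta genes, whose products bring the pore to the surface, held 39 and 31 peaks, and the beta genes, which act from inside the cell, held 18 and 18. The gamma genes held 31 and 21, with fewer peaks at 6 of 8. CACNA2D2 had 11 and 7 peaks, CACNA2D4 had 18 and 14, and CACNG4 had 14 and 10. CACNB2 was the calcium channel gene with more peaks in sgSNHG1, at 5 against 2.

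Among the potassium channel genes, the voltage-gated alpha subunits held 218 peaks in sgCtrl and 156 in sgSNHG1, a ratio of 0.716 (0.583 to 0.879). The calcium- or sodium-activated genes held 74 and 65, the auxiliary genes 78 and 66, the two-pore-domain genes 51 and 43, and the inward rectifiers 25 and 23. Ratios in these 4 groups ran from 0.843 to 0.920, and each interval included 1. KCNH2 (chr7:150944961-150978321), the gene of the hERG channel, had 15 peaks in sgCtrl and 17 in sgSNHG1, and all 15 overlapped. KCNN3, of a small-conductance calcium-activated channel, had 15 and 16, and KCNMA1, of the large-conductance one, had 20 and 17. KCNK3, of a two-pore channel that sets the resting potential, had 8 and 8. KCND3, of an A-type channel, had 5 and 4, and KCNC1 had 7 and 3. KCNQ3 and KCNQ5, whose products carry the neuronal M current, had 2 and 1 and 6 and 1. KCNIP4 (chr4:20728606-21948772), which encodes a protein that modulates A-type channels, had 0 and 2.

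At the promoters with a peak in both lists, fold enrichment was about equal between the groups. Over the 76 members the median log2 ratio of sgSNHG1 to sgCtrl was -0.003, and the quartiles were -0.19 and 0.22. The highest promoter peak was higher in sgSNHG1 at 37 of 76 members (48.7%) and at 7035 of 12315 genes overall (57.1%). The promoters of the channel genes were low, with a median fold enrichment of 4.69 in sgCtrl and 4.61 in sgSNHG1 beside 6.51 and 6.88 over all such genes. The values ran from 2.66 to 13.7 in sgCtrl and from 2.80 to 12.0 in sgSNHG1.

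CACNA2D1, which encodes the alpha2delta subunit that binds gabapentin, had the highest promoter peak, of 13.7 in sgCtrl and 12.0 in sgSNHG1. CACNB2 followed among the calcium channel genes, with 9.26 and 8.45. KCNH1 had 8.76 and 9.19 and KCNQ5 had 7.95 and 7.25. All 4 were above the median promoter of all genes in both lists. Lower in sgSNHG1 were CACNA2D3 with 7.32 and 4.60, CACNA1E with 5.00 and 3.31, KCNK10 with 6.64 and 4.42, and KCNK1 with 8.57 and 6.09, by -0.67, -0.59, -0.59 and -0.49 on the log2 scale. At CACNA2D3 the highest promoter peaks of both lists did not overlap. Higher in sgSNHG1 were KCNH3 with 3.27 and 5.39, KCNF1 with 3.79 and 5.55, KCNS2 with 3.17 and 4.31, and CACNB3 with 3.98 and 5.32, by 0.72, 0.55, 0.44 and 0.42. KCNH2 (4.56 and 4.62), KCNQ3 (4.78 and 4.88) and KCNC1 (4.86 and 5.07) were nearly equal. CACNA2D2 had 4.09 and 4.49, CACNG4 had 3.36 and 3.77, and KCND3 had 5.10 and 3.78.

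**Figure D4:**
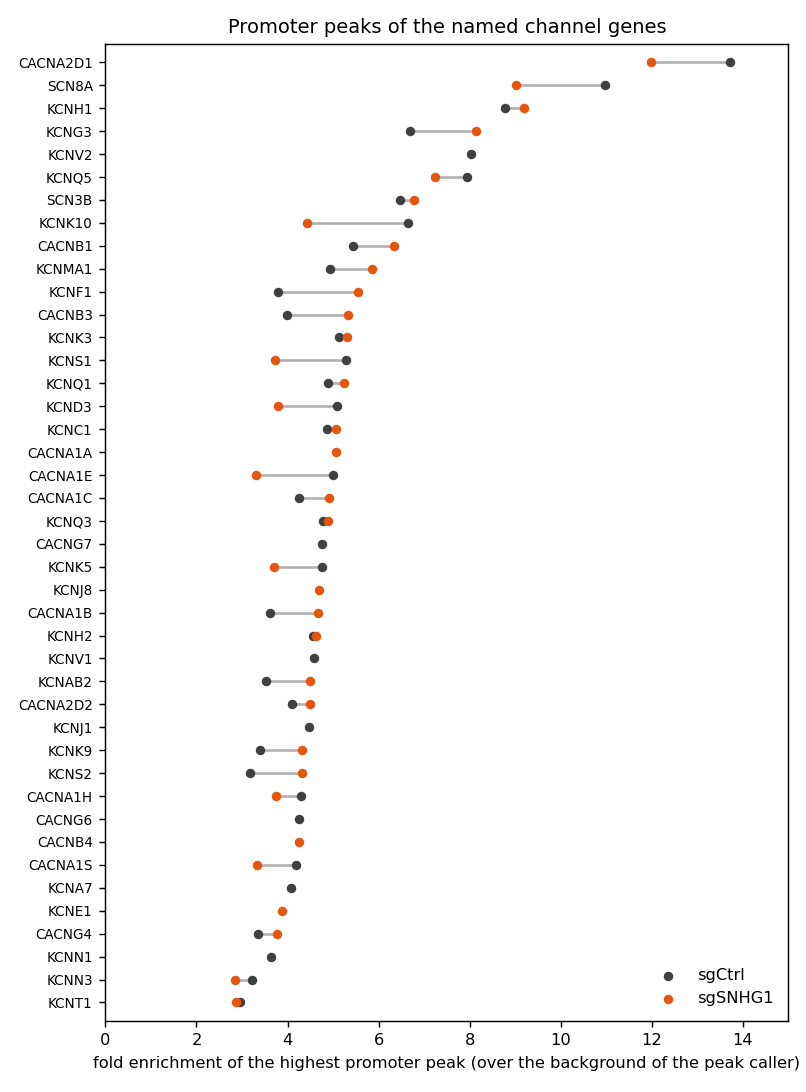
Fold enrichment of the highest promoter peak (x axis) of the channel genes named by rule and shown here, each with a promoter peak, in sgCtrl (dark) and sgSNHG1 (orange), ordered by the higher value. A line joins genes with a peak in both lists, and CACNA2D1 is highest in both, at 13.7 and 12.0.

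The widest promoter peaks over a start site were at KCNG3, KCNQ5, KCNMA1, KCNAB2 and CACNA2D1. The peak at KCNG3, of a silent subunit that joins other potassium channels, spanned 2092 bp in sgCtrl and 2255 bp in sgSNHG1, and its start lies beside that of MTA3, so the mark cannot be given to either gene. KCNQ5 had 1917 and 2046 bp and CACNA2D1 had 1445 and 1750 bp. KCNMA1 had 303 and 1902 bp and KCNAB2 had 1812 and 706 bp. The widths were alike in both lists at KCNG3, KCNQ5 and CACNA2D1, and not at KCNMA1 and KCNAB2. The widest peak was taken in each list apart, so the widths may belong to different peaks or start sites. KCNMA1 had 3 promoter peaks in sgCtrl and 3 in sgSNHG1, and KCNAB2 had 7 and 8. The part of split peaks in these gaps was not tested.

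Promoter peaks found in 1 list only were mostly low. Of the 9 members with one in sgCtrl only, KCNV2 had the highest, of 8.02, and CACNG7 (4.75), KCNV1 (4.58), KCNJ1 (4.48), CACNG6 (4.24) and KCNA7 (4.07) followed. The other 3 were KCNN1 (3.64), KCNK15 (3.44) and KCNG4 (3.41). KCNV2, of a silent subunit known from retinal cone disease, lies on the short arm of chromosome 9, where 13 sgCtrl peaks and 3 sgSNHG1 peaks lay within 1 Mb on either side of the gene, and 465 and 299 over the whole arm. The part of that region in the value at KCNV2 was not tested. The KCNJ1 peak overlapped a sgSNHG1 peak that lay just beyond 3 kb from the start site, so its call turned on the distance limit. CACNG7 and KCNA7 had no other peak in their windows.

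Of the 5 members with a promoter peak in sgSNHG1 only, CACNA1A had one of 5.06, KCNJ8 of 4.70, CACNB4 of 4.24 and KCNE1 of 3.88. The peaks of CACNA1A, KCNJ8 and CACNB4 lay over a start site and were 299, 266 and 200 bp wide. KCNJ8, of an inward rectifier gated by ATP, had 0 peaks in sgCtrl and 2 in sgSNHG1. CACNB4 had a higher peak in both lists (11.6 and 10.2), which was nearest to the start of a neighbouring gene. KCNE1, an auxiliary gene, had its sgCtrl peak nearest to RCAN1.

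The place of the highest peak of each gene was compared as a percentile of fold enrichment within its own list, which does not depend on the scale of the list. The highest peak may be a different one in each list. Over the 95 members with a peak in both lists the median change, sgSNHG1 minus sgCtrl, was -2.71 points, beside -0.71 over 14702 genes. The percentile was lower by more than 10 points at 27 members (12.8% of all genes) and higher by more than 10 at 9 (8.5% of all genes). Those 27 are 28.4% of the 95 members and the 9 are 9.47%. The 27 include CACNG6 and CACNG8, whose windows have the same highest peak in each list. The calcium channel genes had a median change of -7.66 over 23 genes, the potassium channel genes of -1.59 over 65 and the sodium channel genes of -0.72 over 7. With lists of equal length the median over all channel genes was 1.18 and over all genes 0.95, so its sign turned with the length of the list. The medians were then -1.58 for the calcium, 2.98 for the potassium and -0.19 for the sodium channel genes.

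Change in percentile went with the level of the peak, and the channel genes had lower peaks than other genes, with 4 of 95 members and 3640 of 14702 genes at a percentile of 95 or more in sgCtrl. In genes with an sgCtrl percentile of 80 to 95, it was lower by more than 10 points at 11 of 37 members (29.7%) and at 11.3% of 5950 genes. From 60 to 80 it was lower at 11 of 27 members (40.7%) and at 24.7% of 3043 genes. Below 60 it was lower at 5 of 27 (18.5%) and 20.3% of 2069, and higher at 9 (33.3%) and 35.7%. Within the middle classes the share of lower members was above that of all genes, and below 60 the shares were alike. The part of level in the difference was not tested further.

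**Figure D5:**
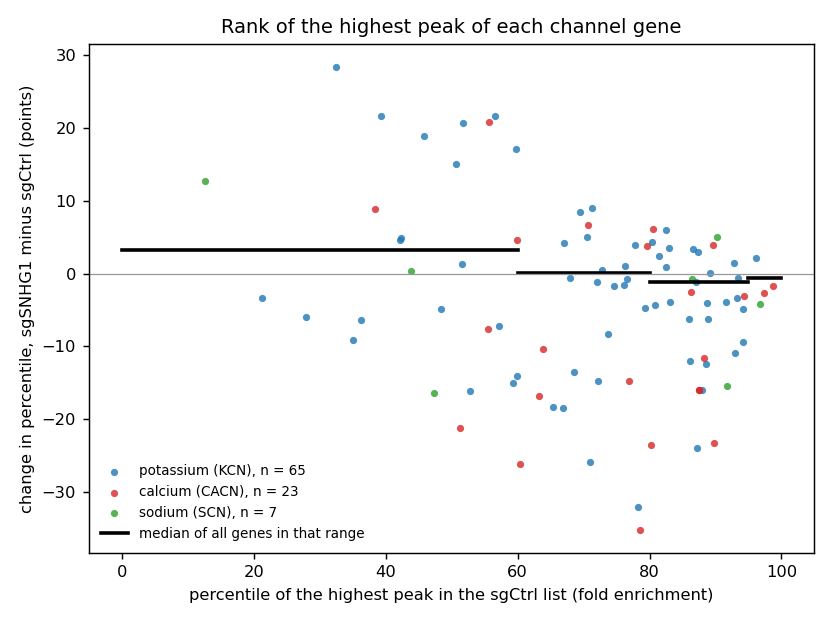
Percentile of the highest peak of each channel gene in the sgCtrl list (x axis) and its change in the sgSNHG1 list in points (y axis), for 65 potassium, 23 calcium and 7 sodium channel genes with a peak in both lists. Black lines are the medians of all genes in 4 ranges, and 16 of the 23 calcium channel genes lie below them. Among the 16, CACNG6 and CACNG8 have the same highest peak.

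The percentile was lower in sgSNHG1 by most at CACNA1E (from 78.5 to 43.3), KCNS1 (78.2 to 46.0), CACNA1S (60.4 to 34.2), KCNK5 (70.9 to 45.0) and KCNK10 (87.2 to 63.1). It was higher by most at KCNS2 (32.6 to 60.9), KCNK9 (39.4 to 61.0), KCNF1 (56.7 to 78.3), CACNB3 (55.7 to 76.5) and KCNN1 (51.8 to 72.5). In 9 of these 10 genes the nearest start site of the highest peak was the gene's own. At KCNN1 it was that of ARRDC2. The highest peaks of both lists did not overlap at CACNA1E, KCNK9, KCNF1 and KCNN1, so the change there compares different peaks. CACNG2, of a protein that guides AMPA receptors at synapses, went from 80.2 to 56.6. KCNJ6, of a G-protein-gated rectifier of neurons, had 1 peak per list, 205044 bp from its nearest start site, of 10.5 and 13.3. Its percentiles were 96.1 and 98.2, so the mark there was high and alike in rank in both lists.

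The highest peak of a window was not always a peak of the channel gene. Its nearest protein-coding start site was the member's own at 81 of 103 members in sgCtrl and at 82 of 99 in sgSNHG1. It was DCP1B for CACNA1C (7.30 and 9.62), DCAF7 for KCNH6 (8.49 and 10.0), and RPL19 for CACNB1 (5.44 and 6.34). KCNH6 had no promoter peak of its own in either list. Without peaks near the start sites of other genes, the ratio of peak numbers was 0.711 and the median change in percentile was -4.23.

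Promoter sequence was compared at the annotated 5′ end of all 133 members, read from GRCh38 from 250 bases before to 50 after it, because the RefSeq table held 71.4% of them. These windows are not always the promoters printed above. SCN8A had 84.0% GC in the RefSeq window and 40.7% at the GENCODE 5′ end, and KCNJ8 had 61.7% and 37.3%. A peak lay within 3 kb of that 5′ end in both lists at 61 members and in neither at 53. The CpG ratio, observed to expected, was at least 0.6 at 44 of these 61 (72.1%, 59.8 to 81.8) and at 18 of the 53 (34.0%, 22.7 to 47.4). Over all genes the shares were 77.8% and 23.6%. The median GC content was 72.3% and 53.0% in these members and 64.3% and 49.7% in all genes. Members with the mark at the 5′ end thus more often had a high CpG ratio than members without it, as over all genes. Motifs were searched in these windows on both strands. The E-box CACGTG was found at 8 members (6.02%) and in 8.24% of the promoters of all 19111 genes. A second E-box, CATCTG, was found at 16 (12.0%) and in 13.1%. The GATA motif AGATAA was found at 9 (6.77%) and in 8.71%. Of the parts of the site of REST, a repressor of neuronal genes, CAGCACC was found at 11 (8.27%) and in 7.74%. The other part, GGACAGC, was found at 15 (11.3%) and in 6.54%. It was at 8 of the 61 members with a peak at the 5′ end in both lists (13.1%), beside 6.75% over all genes of that class. It was at 4 of 13 members with such a peak in sgCtrl only, 0 of 6 in sgSNHG1 only and 3 of the 53 with none. Over all genes of these classes the shares were 8.54%, 7.03% and 5.74%. The motif was not tested against the peaks. A match is a description of letters and not of binding.

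Genes that work with the channels were listed beside them, with 32 other cation channel, anchor, modulator and repressor genes. Of these, 24 had a promoter peak in sgCtrl and 22 in sgSNHG1. Their windows held 214 and 195 peaks, with fewer in sgSNHG1 at 13 and more at 7. Over all genes 69.4% and 67.6% had a promoter peak, and peaks were fewer at 38.4% and more at 15.1%, so the counts of the 32 were near those shares. The median change in percentile was -4.33 over 24 genes.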

How the data were processed

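H3K27ac ChIP-seq of 4 samples was analysed (2 sgCtrl, 2 sgSNHG1). The authors aligned reads to GRCh38 with BWA, after cutadapt, combined both replicates and called peaks with MACS2 at p = 1e-06. Each deposited list gives a fold enrichment, a ratio taken at the summit over the background estimated nearby by the peak caller, and the −log10 of the p-value assigned by the authors' peak caller. Depth per sample is unknown, and −log10 p grows with depth. No other columns were used.

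Peaks, members (GENCODE release 44), windows of 10 kb, promoters of 3 kb and overlaps of at least 1 base were joined with pandas 2.3.3 and numpy 2.4.6 under Python 3.11.15 (scipy 1.17.1, figures in matplotlib 3.10.9). The code was tested on simulated data and against bedtools 2.31.1. A peak in several windows was counted once. Intervals are Wilson (shares) or from peak counts (ratios).

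The members, gene lists and measures were chosen with earlier results of these data known. Named genes are the 6 with the most peaks, those with a promoter peak in 1 list (at most 6 each way, of highest enrichment), the 5 largest changes in percentile each way, the 5 widest peaks over a start site and a list of 30 known for their roles. Other genes, among them the members without peaks, CACNA1D, CACNA1G, CACNA1I, CACNA2D3, CACNA2D4, CACNB2, KCNA2, KCNA3, KCNA6, KCNG4, KCNH3, KCNJ12, KCNK1, KCNK15, SCN7A and SCN11A, were named after their values were seen. The alternatives were lists of equal length, a limit of 10 on −log10 p, other windows, promoters, overlaps and measures, merged peaks, and the removal of peaks or regions. Those without the 6 densest members or the calcium channel genes, the promoters at the GENCODE 5′ end and the peaks there, were chosen after seeing the data. Some genes that the rule names are not reported here.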

Additional observations from a re-analysis of the deposited data

How the results depend on the processing

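Over 14 alternatives, 77 of 89 values stayed within the limits set, 11 moved beyond them and 1 turned its sign. The limits were a factor of 1.5 for counts and the 95% interval of the main value for the others. Turns were looked for only in the ratios between lists and the median change in percentile. Within the limits, the relative log2 ratio at shared peaks was 0.00107 at a −log10 p of at least 10. With lists of equal length, more members had a peak or a promoter peak in sgSNHG1 than in sgCtrl. With peaks of −log10 p of at least 10, 14 members had a promoter peak in sgCtrl only (5.32% of all genes), the ratio of peak number was 0.645 (0.753 over all genes) and 51.2% of sgCtrl peaks were shared. With lists of equal length, made by keeping the sgCtrl peaks of highest −log10 p, 12 members had a promoter peak in sgSNHG1 only (5.31% of all genes), the ratio of peak number was 0.965 and of covered bases 0.833 (0.986 and 0.884 over all genes), the shared shares were 65.4% of sgCtrl and 69.2% of sgSNHG1 peaks, and the median change in percentile turned to 1.18 (0.947 over all genes). By construction both lists then hold as many peaks, and the cause of the other moves was not tested. With an overlap of at least 50% of both peaks, 43.3% and 59.1% were shared. With the pileup recovered from fold enrichment and −log10 p, the relative log2 ratio at shared peaks was -0.0704. Without the 6 members with the most peaks the ratio was 0.782, an alternative chosen after seeing the data. Grouped by a promoter peak at any start site, the share of members with a CpG ratio of at least 0.6 was 63.2% of 76 with a peak in both lists and 37.2% of 43 with none (73.4% and 26.9% over all genes). No paired analysis was possible because both replicates of a group were pooled before peaks were called, and leaving out a replicate was not run for the same reason. Depth is unknown and limits what a missing peak shows.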

Other observations

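Channel genes off chromosomes 1 to 22 were outside the rule. On chromosome X, KCND1, of an A-type potassium channel, had 2 peaks in its window in sgCtrl, the highest of 8.67-fold enrichment, and 1 of 10.9 in sgSNHG1. CACNA1F, of a retinal L-type calcium channel, had 2 peaks in sgCtrl, the highest of 4.21, and 1 of 4.94 in sgSNHG1. KCNE5 had 0 in both lists. Each of the first 2 genes had fewer peaks and a higher highest peak in sgSNHG1. With 1 list per group these differences were not tested.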
